A study of Mus musculus with 4 samples.

Results

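Transcripts of the insulin secretory granule were examined in Beta-TC-6 cells, a mouse pancreatic beta cell line, after depletion of NF45. The genes are listed by name, with no measured value in the rule, though earlier results of these data were known when the list was made. The set takes hormones (Ins1, Ins2, Iapp), granins (Chga, Chgb, Scg2), prohormone-processing enzymes (Pcsk1, Pcsk2, Cpe) and the granule zinc transporter Slc30a8, each represented by its brightest probe set that carries exactly 1 gene symbol in the platform annotation. Of these 10 genes, 8 had such a probe set, 1 each, out of 22180 genes with one on the array. Ins1 and Pcsk2 had none in the annotation used here and were not analysed here. The series compared 2 samples transfected with a mixture of RNA interference duplexes against NF45 (siNF45) with 2 samples transfected with a negative control siRNA (siNTC), 1 Affymetrix Mouse Gene 2.1 ST array per sample. All cells grew in medium with 25 mM glucose and 15% serum and received their siRNA through the same lipid reagent. Nothing in the labels states that the replicates were separate transfections, so the p-values reflect how far these particular samples lay apart, and that spread could be purely technical.

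A beta cell makes insulin as a precursor that enters the endoplasmic reticulum, folds, and is packed into granules at the trans-Golgi network. There the prohormone convertases PC1/3 (Pcsk1) and PC2 (Pcsk2) cut the precursor at pairs of basic residues, and carboxypeptidase E (Cpe) trims the residues left behind. The zinc transporter ZnT8 (Slc30a8) loads the granule with zinc, with which insulin crystallises, and granins, acidic proteins that aggregate in the Golgi, share the granule with insulin and with islet amyloid polypeptide (Iapp). NF45, the product of Ilf2, forms a complex with NF90 that binds double-stranded RNA.

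The target itself was low in the depleted cells. Ilf2 had 3.67 and 3.77 on the siNF45 arrays, against 5.79 and 5.98 on the siNTC arrays (log2 expression). It fell by 2.17 on the log2 scale, with a limma adjusted p of 0.02. An exact two-sided permutation test gave p = 0.333, the smallest that 2 arrays against 2 allow. Ilf2 no longer passed when any 1 array was left out (limma adjusted p from 0.307 to 0.471, differences from -2.26 to -2.07) or with the replicate number as a block (limma adjusted p = 0.258). Beta cell identity of the samples was checked with 9 further markers, of which 8 reached the signal filter (a mean of at least 1.645 over the 4 arrays, the median of all probe sets), among them Pdx1, Mafa, Nkx6-1 and Slc2a2. Of these 8, Kcnj11, the pore of the KATP channel, had the largest difference, at -1.02 (limma adjusted p = 0.134), with -0.255 for its partner Abcc8, and the other 6 lay between -0.165 and 0.175. The exception was Ucn3, a marker of mature beta cells, which read between 0.9 and 1.38. The alpha cell hormone gene Gcg, with 7.61 and 7.53 in siNF45 against 7.75 and 7.43 in siNTC, and the delta cell hormone gene Sst also reached it, whereas none of the 4 acinar and 3 endothelial markers with a probe set did. Of the markers of duct, immune and mesenchymal cells, 1, 1 and 2 did. The immune marker Cd68 and the mesenchymal markers Vim and Col1a2 lay close to the filter level. Their means were 1.74, 1.62 and 1.58 in siNF45, against 1.9, 1.895 and 1.77 in siNTC, so Vim and Col1a2 were under that level in siNF45. The duct marker Krt7 differed by 0.665 (limma adjusted p = 0.132, or 0.0434 after each array was centred on the median of its tested genes). The part of these markers in the granule values was not tested. Because these are bulk samples, fewer cells of a type and less RNA per cell cannot be told apart.

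Promoter sequence from RefSeq (mouse assembly GRCm38.p6) was at hand for 5 of the 8 measured genes. It is shown for the 3 granins and Pcsk1, which hold both the largest differences of the set and near-zero ones. Each holds at least the half-site of the motif marked below. The choice was made with these differences known, so it is no test of the motif. Each line gives the 120 bases before the annotated start site, 5′ to 3′ on the coding strand. Capitals mark the exact letters TGACGTCA of the full cAMP-response element. In Chga, which lacks that exact match, they mark the half-site TGACG, followed there by taa. Near matches to the full element were not searched.
Chgb, chr2:132781522-132781641, plus strand: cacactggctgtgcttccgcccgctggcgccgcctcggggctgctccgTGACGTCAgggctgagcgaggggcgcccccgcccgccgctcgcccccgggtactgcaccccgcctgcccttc
Pcsk1, chr13:75089737-75089856, plus strand: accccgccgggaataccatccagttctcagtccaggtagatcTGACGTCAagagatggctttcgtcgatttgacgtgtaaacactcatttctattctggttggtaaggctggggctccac
Scg2, chr1:79440027-79440146, minus strand: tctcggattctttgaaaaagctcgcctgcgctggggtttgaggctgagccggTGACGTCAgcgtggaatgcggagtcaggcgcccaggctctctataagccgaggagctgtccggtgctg
Chga, chr12:102554821-102554940, plus strand: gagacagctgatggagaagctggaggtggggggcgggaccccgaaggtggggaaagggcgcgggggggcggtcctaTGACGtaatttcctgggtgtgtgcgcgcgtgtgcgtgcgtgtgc
The full element, a palindrome and so the same on both strands, began at position -72 in Chgb, -78 in Pcsk1 and -68 in Scg2, counted backwards from the start site. In the 250 bases before the start site, 1.55% of 32851 RefSeq promoters held it. The half-site, searched on both strands and contained in every full element on both strands, occurred in 17.8% of them, began at -44 in Chga and was found once more in Pcsk1 at -50. The Iapp promoter held neither within 250 bases. A match describes letters and not binding of a factor.

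Across the 8 measured genes, the largest differences lay in 1 granin and 1 convertase, and the hormones, the other granins, Cpe and Slc30a8 lay close to 0. None of the 8 passed the limma test at an adjusted p under 0.05 over 11742 tested genes, a threshold that 0.0852% of all tested genes passed. At an unadjusted p under 0.05, 2 of the 8 were lower in siNF45, where 13.2% of all tested genes were, and 0 of the 8 were higher, where 4.02% were. Both siNF45 arrays lay below both siNTC arrays for 4 of the 8 genes, against 32.6% of all tested genes, and above them for 2, against 15.2%. Differences (siNF45 minus siNTC) were above 0 for 4 genes, against 37.8% of all tested genes, and below 0 for 4, against 61.3%, with a median of 0, where the median over all tested genes was -0.065. Centring each array on the median of its tested genes, which adds 0.13 to every difference, left 6 above 0 and 2 below. Of the 11742 tested genes, 7008 lay above 0 and 39.5% below after centring, with a median of 0.065.

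**Figure D1:**
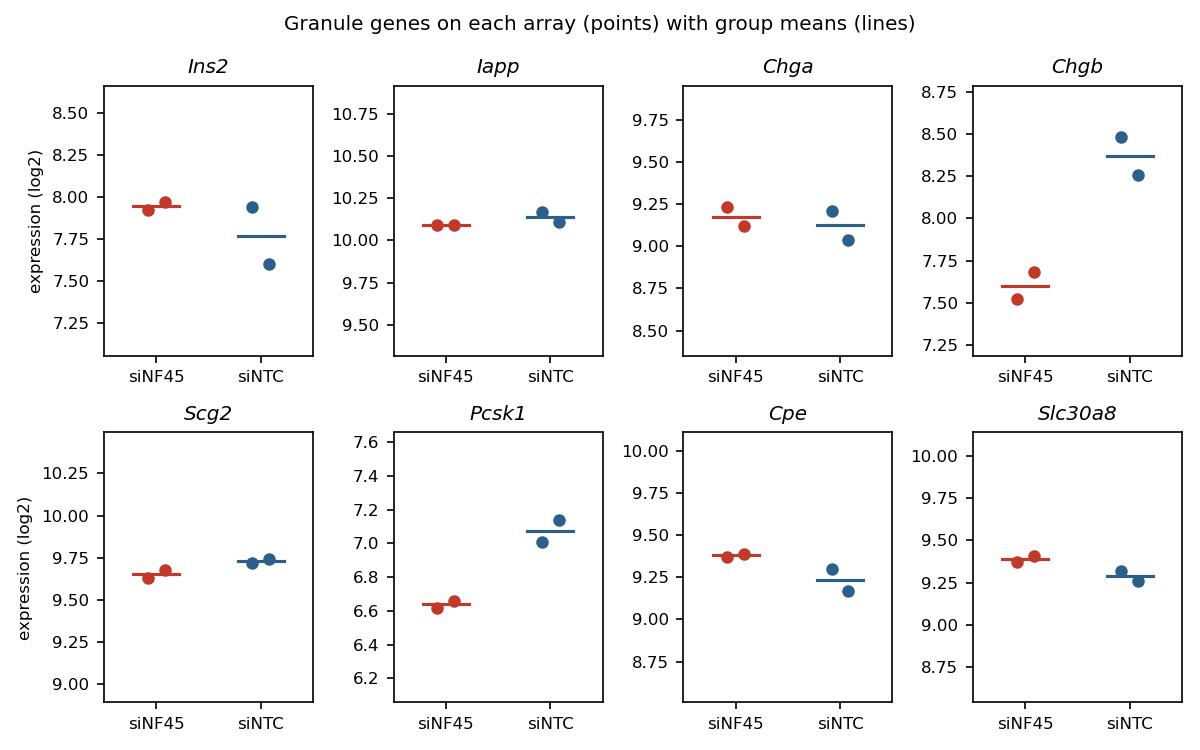
Log2 expression of the 8 measured granule genes on each array, siNF45 (red) left of siNTC (blue), with points for arrays and lines for group means of 2 arrays; every panel spans the same log2 range. The siNF45 points lie apart from and below the siNTC points for Chgb and Pcsk1, and the other panels show groups that touch or nearly touch.

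Among the hormones, Ins2, which encodes mouse preproinsulin 2, had 7.92 and 7.97 in siNF45, against 7.94 and 7.6 in siNTC. The groups overlapped, and siNTC replicate 2 was the array that stood lower. Ins2 averaged 7.945 ± 0.0354 in siNF45 and 7.77 ± 0.24 in siNTC (log2, SD, n = 2 each). It differed by 0.175 with a 95% interval from -0.206 to 0.556 and a limma adjusted p of 0.615. Without siNTC replicate 2 the Ins2 difference was 0.005, and without siNTC replicate 1 it was 0.345. The Ins2 mean over the 4 arrays, 7.858, was below that of Iapp, 10.12. Of 41345 probe sets, 565 had a mean at or above that of Ins2, its own included. How fully the Ins2 probe set reads its transcript was not tested. The insulin paralogue Ins1 was not analysed, and whether the Ins2 probe set also takes up its near-identical transcript was not tested.

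Iapp, the precursor of the amyloid peptide that is secreted with insulin, had 10.09 and 10.09 in siNF45, against 10.17 and 10.11 in siNTC. Its difference was -0.05 (SE 0.116), with a 95% interval from -0.339 to 0.239 and a limma adjusted p of 0.87. The siNF45 arrays lay just below both siNTC arrays, by less than the gap between the siNTC replicates. Its sign turned to 0.08 once the arrays were centred.

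The granins differed in their values. Chgb, chromogranin B, had 7.52 and 7.68 in siNF45, against 8.48 and 8.26 in siNTC. Every siNF45 array lay below every siNTC array, and the gap between the groups was wider than that between replicates. Chgb averaged 7.6 ± 0.113 in siNF45 and 8.37 ± 0.156 in siNTC (log2, SD, n = 2 each). It was 1.705-fold lower in siNF45, at -0.77 (SE 0.14) with a 95% interval from -1.118 to -0.422. Its unadjusted p of 0.00183 ranked 205th of all tested genes and gave a limma adjusted p of 0.105. With a variance prior that follows the signal level (eBayes with trend), the limma adjusted p was 0.0211 and Chgb passed; over the 12 alternatives it ranged from 0.0211 to 0.471.

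Chga, chromogranin A, had 9.23 and 9.12 in siNF45, against 9.21 and 9.04 in siNTC. The 4 values interleaved. The difference was 0.05 (SE 0.13), with a 95% interval from -0.272 to 0.372 and a limma adjusted p of 0.886, and it turned to -0.005 without siNF45 replicate 1 and to -0.035 without siNTC replicate 2.

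Scg2, secretogranin II, had 9.63 and 9.68 in siNF45, against 9.72 and 9.74 in siNTC. The siNF45 arrays were both lower, by a small margin. The difference was -0.075 (SE 0.116), with a 95% interval from -0.363 to 0.213 and a limma adjusted p of 0.794, and centring turned it to 0.055. The Scg2 promoter holds the full cAMP-response element shown above, as do those of Chgb and Pcsk1. The part of that element in the values of these genes was not tested.

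**Figure D2:**
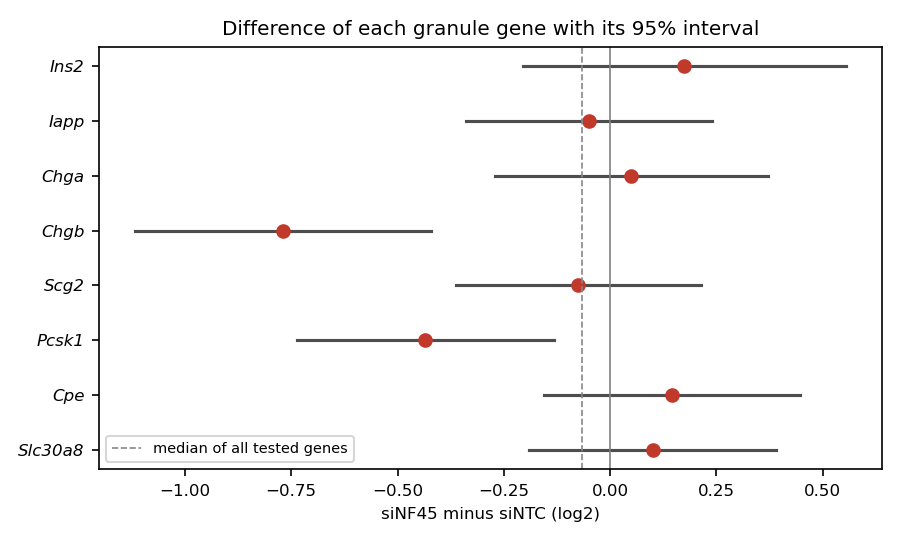
Difference between siNF45 and siNTC on the log2 scale for each measured granule gene (points) with its 95% interval from limma (lines); the dashed line marks the median of all tested genes at -0.065. The intervals of Chgb and Pcsk1 lie below 0 and the other 6 cross it; the intervals are not adjusted for the number of genes.

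Of the processing enzymes, Pcsk1, which encodes PC1/3, had 6.62 and 6.66 in siNF45, against 7.01 and 7.14 in siNTC. The groups did not overlap. Pcsk1 averaged 6.64 ± 0.0283 in siNF45 and 7.075 ± 0.0919 in siNTC (log2, SD, n = 2 each). It was 1.352-fold lower in siNF45, at -0.435 (SE 0.122) with a 95% interval from -0.737 to -0.133. The unadjusted p was 0.0129 and the limma adjusted p 0.18, and over the 12 alternatives the difference stayed between -0.5 and -0.305 with adjusted p from 0.0633 to 0.471.

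Cpe had 9.37 and 9.39 in siNF45, against 9.3 and 9.17 in siNTC. Both siNF45 arrays were higher. The difference was 0.145 (SE 0.122), with a 95% interval from -0.156 to 0.446 and a limma adjusted p of 0.597, and it ranged from 0.08 without siNTC replicate 2 to 0.275 after centring.

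Slc30a8, which encodes ZnT8, had 9.37 and 9.41 in siNF45, against 9.32 and 9.26 in siNTC. The siNF45 arrays again lay above both siNTC arrays, with a gap of the same order as the spread between replicates. Its difference was 0.1 (SE 0.117), with a 95% interval from -0.19 to 0.39 and a limma adjusted p of 0.715.

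Members of the same role were also set against each other on the same array, which removes any scaling shared by a whole array. For Chga minus Chgb, the log2 difference was 1.71 and 1.44 on the siNF45 arrays, against 0.73 and 0.78 on the siNTC arrays. These values did not overlap, and the group means differed by 0.82. Chgb minus Scg2 was -2.11 and -2 in siNF45, against -1.24 and -1.48 in siNTC, while Chga minus Scg2 was -0.4 and -0.56 in siNF45, against -0.51 and -0.7 in siNTC, where the groups overlapped. Chgb was thus lower relative to both other granins on each siNF45 array. Pcsk1 minus Cpe was -2.75 and -2.73 in siNF45, against -2.29 and -2.03 in siNTC, a group difference of -0.58. Ins2 minus Iapp was -2.17 and -2.12 in siNF45, against -2.23 and -2.51 in siNTC. All 5 pairs within a role were compared. The exact two-sided permutation p was 0.333 for 4 of them, the smallest possible here and 0.416 after Benjamini-Hochberg adjustment, and 0.667 for Chga minus Scg2, so this design cannot separate the pairs by a permutation test.

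Among markers of other islet cells, Sst had the difference nearest in size to that of Chgb. It had 8.18 and 8.07 in siNF45, against 9.19 and 8.83 in siNTC, a difference of -0.885 with a limma adjusted p of 0.103, or 0.024 under the trend setting that also called Chgb. The other delta cell marker, Hhex, was under the signal filter, with 1.19 and 1.13 in siNF45 against 1.34 and 1.14 in siNTC. Summed on the linear scale, both delta cell markers together ranged from 8.082 to 8.191 in siNF45 and from 8.837 to 9.196 in siNTC (log2 of the sum). With Hhex so low, this sum is almost all Sst and adds no second marker. For the 4 alpha cell markers with a probe set, of 5 listed, the sum ranged from 10.262 to 10.333 in siNF45. In siNTC it ranged from 10.299 to 10.337. The transcription factor genes Irx1 and Irx2 differed by -0.55 and -0.39 (limma adjusted p = 0.148 and 0.289) and Gcg by -0.02. Irx1 had only 1.5 and 1.28 in siNF45, against 1.92 and 1.96 in siNTC. Its siNF45 values were under the filter level of 1.645, which Irx1 reached only through siNTC, so its difference is not read as a fall. The alpha cell sum is mostly Ttr, with 10 and 10.1 in siNF45 against 10.06 and 10.07 in siNTC. Ppy, the marker of PP cells, went the other way, with 3.13 and 2.62 in siNF45 against 2.18 and 2.54 in siNTC. Its difference was 0.515 (limma adjusted p = 0.307). The part of delta-like expression in the Chgb and Pcsk1 values was not tested.

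Other granule cargo and helper proteins formed a list of 10 genes, all tested. No member passed after adjustment in the fit as deposited. At an unadjusted p under 0.05, 3 were lower and 0 higher in siNF45, against 13.2% and 4.02% of all tested genes, and 7 had a difference below 0, where 61.3% of all tested genes did. The median was -0.16. Vgf, a granin-like peptide precursor, had 4.99 and 4.37 in siNF45, against 5.93 and 5.96 in siNTC, a difference of -1.265 (SE 0.217, limma adjusted p = 0.096), which passed after centring (0.0293) and with a trend (0.0328). Its siNF45 replicates lay far apart, yet both were below the siNTC arrays. Pam, the enzyme that amidates the ends of peptides such as the amyloid polypeptide, had 6.34 and 6.14 in siNF45, against 6.99 and 6.93 in siNTC, a difference of -0.72 (limma adjusted p = 0.104, or 0.0264 with a trend). Cpd, a carboxypeptidase of the trans-Golgi network, differed by -0.405 (limma adjusted p = 0.225). The list median was -0.09 after quantile normalization and -0.03 after centring, where that of all tested genes was -0.0175 and 0.065.

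Of 13 other convertases and carboxypeptidases of the Cpe family, 9 were tested, with 0 passing as deposited and a median of -0.175. At an unadjusted p under 0.05, 3 were lower and 0 higher, against 13.2% and 4.02% of all tested genes. The 3 were not prohormone-processing enzymes. Aebp1, an extracellular carboxypeptidase-like protein, had 2.78 and 2.45 in siNF45, against 4.22 and 3.97 in siNTC, a difference of -1.48 (SE 0.168, limma adjusted p = 0.0708). Aebp1 passed at the 70th percentile filter (limma adjusted p = 0.0409), after quantile normalization (0.0334), after centring (0.00902) and with a trend (0.0211). The membrane-bound carboxypeptidase Cpm differed by -0.52 and the plasma carboxypeptidase subunit Cpn1 by -0.355, with limma adjusted p of 0.15 and 0.246. The general convertase Furin, at -0.16, had groups that overlapped, and read 0.015 without siNTC replicate 1.

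Granule membrane proteins and proton pump subunits numbered 22, of which 20 were tested. None passed as deposited. At an unadjusted p under 0.05, 1 was higher and 4 lower, against 4.02% and 13.2% of all tested genes. Of the 20, 17 lay below 0, against 61.3% of all tested genes, with a median of -0.173; after centring 12 did, against 39.5%, with a median of -0.0425. Slc18a1, the vesicular monoamine transporter VMAT1, had 3.95 and 3.9 in siNF45, against 3.27 and 2.58 in siNTC, a difference of 1 (limma adjusted p = 0.144, or 0.0398 after centring) that was 0.655 without siNTC replicate 2. It was the 1 member on the higher side at that threshold. Cyb561, an electron carrier of the granule membrane, differed by -0.615 and the proton pump accessory subunit Atp6ap2 by -0.33, with limma adjusted p of 0.223 and 0.245. The Cyb561 difference was -0.885 without siNF45 replicate 1 and -0.345 without siNF45 replicate 2, and that of Atp6ap2 was -0.2 after centring.

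Zinc transporters other than Slc30a8, with metallothioneins, numbered 26, of which 19 were tested. None passed as deposited, and the median was -0.005. The unadjusted p was under 0.05 for 2 higher and 3 lower members, against 4.02% and 13.2% of all tested genes. Slc39a8, the importer ZIP8, had 6.32 and 6.26 in siNF45, against 5.41 and 5.36 in siNTC, a difference of 0.905 (SE 0.117, limma adjusted p = 0.0768). It passed at the 70th percentile filter (limma adjusted p = 0.0413), after quantile normalization (0.0402), after centring (0.0166) and with a trend (0.0127). Slc30a4, the exporter ZnT4, had 5.41 and 5.42 in siNF45, against 6.17 and 6.28 in siNTC, a difference of -0.81 (SE 0.12, limma adjusted p = 0.0791), and passed at the 70th percentile filter (0.0477) and with a trend (0.0171). The groups lay clearly apart for both genes, in opposite directions. The zinc-binding metallothionein Mt2 had 10.2 and 10.1 in siNF45, against 9.73 and 9.77 in siNTC, and differed by 0.4 (limma adjusted p = 0.201, or 0.034 with a trend). After quantile normalization and after centring the list median was 0.055 and 0.125, so its sign depended on the scaling. The median over all tested genes was -0.065 as deposited, -0.0175 after quantile normalization and 0.065 after centring.

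**Figure D3:**
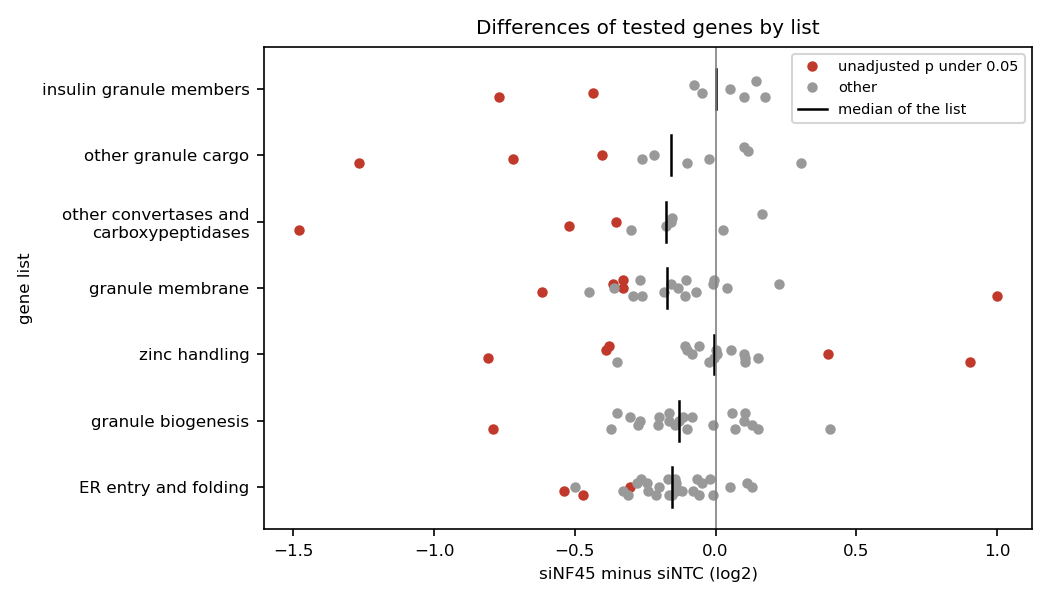
Differences between siNF45 and siNTC (log2) of the tested genes of each list, 1 point per gene, with red points at an unadjusted p under 0.05 and black lines at list medians. The granule genes have a median of 0 with Chgb and Pcsk1 to the left; Aebp1 at -1.48 and Slc18a1 at 1 are the outermost points.

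Factors of granule budding, sorting and maturation numbered 25, of which 23 were tested. None passed, and the median was -0.13, or 0 after centring, where that of all tested genes was -0.065 and 0.065. There was 1 member lower and 0 higher at an unadjusted p under 0.05, against 13.2% and 4.02% of all tested genes. The 1 was Pick1, a membrane-bending protein of immature granules, at -0.79 (limma adjusted p = 0.218), with 3.19 and 2.44 in siNF45 against 3.56 and 3.65 in siNTC. Its difference was -1.165 without siNF45 replicate 1 and -0.415 without siNF45 replicate 2. The sorting adaptor Gga3 differed by 0.405 and the Golgi GTPase Rab2a by -0.275, with limma adjusted p of 0.299 and 0.308. Gga3 read 0.205 without siNF45 replicate 2, and Rab2a -0.145 after centring.

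Genes for entry into the endoplasmic reticulum, signal cleavage and disulfide formation numbered 33 names, of which 29 were tested. None passed. At an unadjusted p under 0.05, 3 members had lower values in siNF45 and 0 had higher ones, against 13.2% and 4.02% of all tested genes. Of the 29, 26 lay below 0, against 61.3% of all tested genes, with a median of -0.155 and values between -0.54 and 0.13. Under quantile normalization 22 lay below 0, against 52.9% of all tested genes, and after centring 19 did, against 39.5%. Sec11c, a catalytic subunit of the signal peptidase, had 5.34 and 5.3 in siNF45, against 5.74 and 5.84 in siNTC, a difference of -0.47 (limma adjusted p = 0.155). The oxidase Ero1a differed by -0.54 and the translocon-associated Ssr2 by -0.305, with limma adjusted p of 0.189 and 0.289. The Ero1a difference was -0.2375 when its probe sets were averaged, -0.705 without siNF45 replicate 1 and -0.375 without siNF45 replicate 2, and that of Ssr2 was -0.175 after centring. Hspa5 and Hsp90b1, chaperones of that compartment, differed by -0.05 and -0.06, or by 0.08 and 0.07 after centring. Ero1b, the oxidase enriched in islets, differed by 0.05. All were named after their values were seen and lay nearer 0 than the list median of -0.155. They do not stand for the other folding genes of the list.

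**Figure D4:**
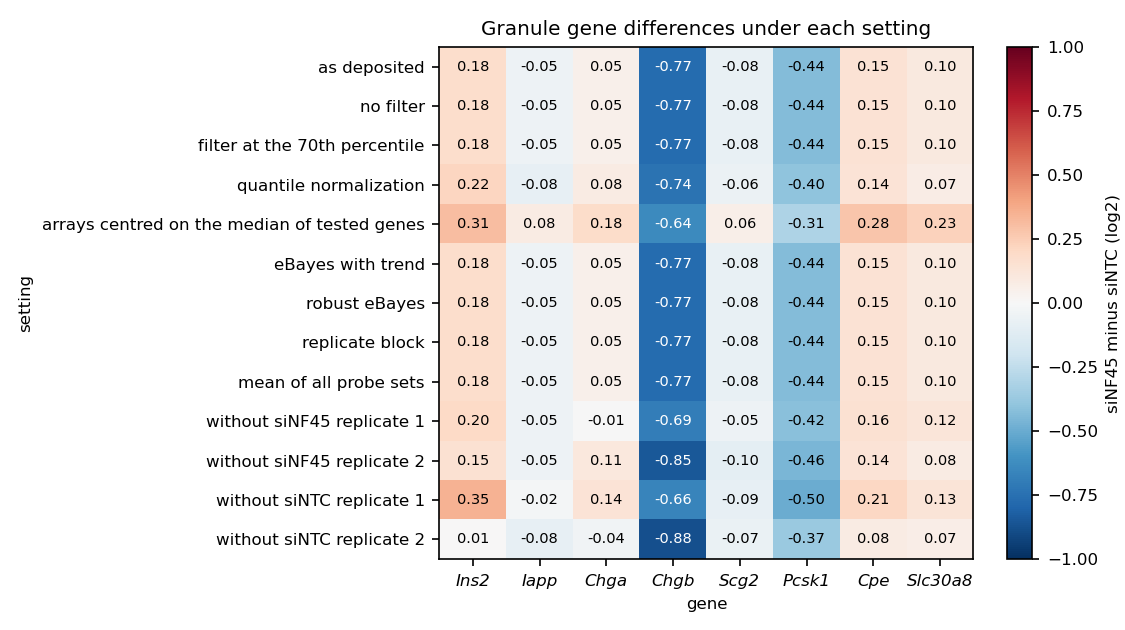
Difference between siNF45 and siNTC (log2) of each measured granule gene (columns) under the fit as deposited and 12 alternatives (rows), in colour and as numbers. Chgb and Pcsk1 are negative in every row, Ins2, Cpe and Slc30a8 positive in every row, and Iapp, Chga and Scg2 change sign in at least 1.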

How the data were processed

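Total RNA of 4 samples was hybridised to 1 array each after labelling from 250 ng, per the labels' protocols. The authors deposited log2 expression values, 1 for each probe set on each array. Transcriptome Analysis Console was their software, per the submitters' processing notes. Its version, algorithm, background correction and log base were not given in the sources used here. Values from 0.12 to 12.21 were taken as log2, and all folds rest on that. Array medians were 1.66 and 1.66 (siNF45) and 1.64 and 1.64 (siNTC); genes were not centred, and direction follows the sample names. The number of arrays limits the precision.

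Of 41345 probe sets, 23521 carried 1 symbol, 1814 several and 16010 none. Genes whose brightest 1-symbol probe set had a mean of at least 1.645 were tested (11742), with limma 3.58.1 in R 4.3.3 (lmFit, eBayes, 2 residual degrees of freedom, prior 3.69) and Benjamini-Hochberg adjustment; the script was tested on simulated data. All 8 measured members passed that filter, and their symbols matched RefSeq by gene number. Members and 6 context lists were chosen with earlier results of these data known; the 3 members of each context list with the smallest p are named, plus any that passed, and Furin, Hspa5, Hsp90b1 and Ero1b were named after their values were seen. Alternatives were another or no filter, quantile normalization, median centring, trend or robust eBayes, a replicate block, averaged probe sets and leaving out each array.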

Additional observations from a re-analysis of the deposited data

How the results depend on the processing

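With 2 arrays per group, the directions of Chgb, Pcsk1, Ins2, Cpe and Slc30a8 held under all 12 alternatives. Chgb was the 1 member called in any of them (1 of 8, at -0.77 with a limma adjusted p of 0.0211 under eBayes with trend). That setting called 174 of the 11742 tested genes. Centring the arrays turned Iapp to 0.08 and Scg2 to 0.055. Leaving out 1 array gave differences from -0.035 to 0.14 for Chga. Against 10 genes called as deposited, 87 were called at the 70th percentile filter (17 higher, 70 lower), 62 after quantile normalization (18 and 44), 172 after centring (71 and 101), 174 with a trend (40 and 134) and 190 at an adjusted p under 0.10 (30 and 160). Leaving out any 1 array gave 0 calls in limma (1236 to 1670 genes at an unadjusted p under 0.05), with Ilf2 between -2.26 and -2.07; the lone array of a group is then assumed to vary like the others. Replicate numbers are shared by the groups but were not taken to pair samples (deviations from group means correlated at 0.00615 over genes); with the replicate block 0 genes were called and 1909 had an unadjusted p under 0.05, Ilf2 was -2.165 at a limma adjusted p of 0.258, Chgb -0.77 at 0.258, and the fit has fewer residual degrees of freedom. Of 40 other named genes and markers, 9 not called as deposited (Vgf, Pam, Aebp1, Slc18a1, Slc39a8, Slc30a4, Mt2, Sst and Krt7) passed in 17 alternative values. Of 472 alternative values of the 40, 17 turned sign: Mafa (0.045 after quantile normalization, 0.115 after centring), Nkx6-1 (0.0256 and 0.115), Gcg (0.0138 and 0.11), Pdx1 (0.085), Ttr (0.115), Hspa5 (0.08) and Hsp90b1 (0.07) after centring, and, over the fits without 1 array, Nkx2-2 (-0.03 to 0.38), Mafa (-0.045 to 0.015), Nkx6-1 (-0.075 to 0.045), Gcg (-0.18 to 0.14), Furin (-0.335 to 0.015) and Ttr (-0.065 to 0.035).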
